A study of Mus musculus with 4 samples.

Results

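The genes described here are 10 genes of B lymphocytes that read out calcium and antigen receptor signals: the nuclear receptor genes Nr4a1, Nr4a2 and Nr4a3, the zinc finger factor genes Egr1, Egr2 and Egr3, the NFAT factor genes Nfatc1, Nfatc2 and Nfatc3, and Rcan1, which encodes an inhibitor of calcineurin. They were chosen by name, with earlier results of these data known. Each had 1 probe set with that symbol alone, so these were 10 of the 22180 genes named on the array. All 10 were among the 12456 genes past the signal filter, a highest value of at least 3.83 on the log2 scale, and none read below that value in any array. The 4 groups were B cells of Tilcara mice and B cells of wild-type mice, each either stimulated or left without stimulation, with 1 array per group and no replicate. Both genotypes had the C57BL/6 background, and Tilcara is labelled as a mouse model with a mutant PKCbeta, a kinase that relays antigen receptor signals in B cells. Stimulated cells received 10 ng/mL of PMA, a drug of the phorbol ester class that switches on PKC enzymes, and 1 µM of A23187, an ionophore that lets calcium into the cell, for 4 hours. The cells came from spleens, thymi and lymph nodes and were sorted with an antibody to the B cell surface protein B220 (CD45R). The sources used here give neither the effect of the mutation on the kinase nor the number of mice behind an array.

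Calcium that enters a lymphocyte binds calmodulin and switches on the phosphatase calcineurin, which strips phosphates from NFAT proteins so that they move to the nucleus. NFAT factors then act with AP-1 factors, which lie downstream of PKC and ERK, on activation genes. The NR4A and EGR genes are immediate-early genes of the same signals: CREB, MEF2 and serum response factor act on their promoters, and their products tune the later response. In B cells, Nr4a1 is widely used as a readout of antigen receptor signalling, and NR4A factors restrain B cells that receive antigen without T cell help.

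Promoter windows from RefSeq (build GRCm38.p6) show what the NR4A genes share in sequence besides their names. In the 250 bases before each annotated start, all 3 NR4A genes held 4 copies of TGACG, the core of the cyclic AMP response element that CREB binds, counted on both strands. In the lines below, capitals mark each copy, as TGACG or as CGTCA where it lies on the opposite strand. The windows are chr15:101266596-101266845 on the plus strand for Nr4a1, chr2:57124004-57124253 on the minus strand for Nr4a2 and chr4:48045055-48045304 on the plus strand for Nr4a3.
Nr4a1: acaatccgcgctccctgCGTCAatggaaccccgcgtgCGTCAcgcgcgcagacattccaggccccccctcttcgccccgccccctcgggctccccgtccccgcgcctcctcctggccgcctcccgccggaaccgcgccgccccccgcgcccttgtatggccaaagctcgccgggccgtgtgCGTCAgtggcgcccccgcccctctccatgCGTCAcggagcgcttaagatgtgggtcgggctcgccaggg
Nr4a2: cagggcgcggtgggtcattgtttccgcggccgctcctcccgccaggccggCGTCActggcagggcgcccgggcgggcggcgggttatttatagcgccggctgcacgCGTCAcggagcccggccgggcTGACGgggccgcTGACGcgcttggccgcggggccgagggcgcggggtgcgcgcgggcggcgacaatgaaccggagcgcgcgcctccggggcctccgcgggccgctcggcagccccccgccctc
Nr4a3: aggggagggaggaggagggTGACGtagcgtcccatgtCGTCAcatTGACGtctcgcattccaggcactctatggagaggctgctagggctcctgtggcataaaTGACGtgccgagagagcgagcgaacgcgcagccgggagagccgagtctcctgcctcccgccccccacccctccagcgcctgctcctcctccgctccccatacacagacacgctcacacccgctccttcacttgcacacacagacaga

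Of all 32851 promoter windows in that table, 17.8% held at least 1 such copy and 0.137% held at least 4. The site of EGR proteins, GCGNGGGCG, occurred once in the Nr4a1 window and once in the Nr4a2 window, against 4.70% of all windows with at least 1. The NR4A monomer site, AAAGGTCA, was in no window of the 7 genes that had one, against 1.34% of all windows.

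The Egr2 and Rcan1 windows shown were picked for the sites they hold. Both genes have several annotated starts, and their windows differ. Of the 5 windows of Egr2, 4 held a CArG box, the site of serum response factor, in the 250 bases before the start, against 1.47% of all windows; 3 of these 4 overlap and hold the same box. In the other one, chr10:67537316-67537565 on the plus strand, capitals mark the box. The NFAT core, GGAAA, occurred 3 times in it, once overlapping the box by 2 bases.
Egr2: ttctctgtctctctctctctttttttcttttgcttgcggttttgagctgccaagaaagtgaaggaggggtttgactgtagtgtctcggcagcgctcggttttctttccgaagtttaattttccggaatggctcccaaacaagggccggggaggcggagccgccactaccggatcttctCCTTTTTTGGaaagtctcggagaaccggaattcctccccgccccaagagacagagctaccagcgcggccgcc

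Rcan1 had a window at its first start with none of the sites searched, and a window at a later start, chr16:92400079-92400328 on the minus strand, with 3 copies of GGAAA and 1 full cyclic AMP response element, TGACGTCA. Capitals mark these sites, with TTTCC where GGAAA lies on the opposite strand.
Rcan1: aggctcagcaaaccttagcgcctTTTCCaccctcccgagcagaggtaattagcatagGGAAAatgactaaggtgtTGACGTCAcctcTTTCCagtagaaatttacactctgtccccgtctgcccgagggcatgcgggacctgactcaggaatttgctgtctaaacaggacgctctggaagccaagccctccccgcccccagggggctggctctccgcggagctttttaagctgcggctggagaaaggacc

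At least 3 copies of GGAAA were in 6.39% of all windows and at least 1 full TGACGTCA in 1.55%. Nfatc2 had 2 windows, with 3 copies and 1 copy of GGAAA, and Nfatc3 had 2 windows, with 1 copy and none. In all, 7 of the 10 genes were matched by symbol to windows in the table. A match is a run of letters and not a measured binding site, and the probe sets do not tell which start was in use.

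Stimulation moved most of these genes. With the 2 genotypes standing in as samples of a state, limma (adjusted p below 0.05 over all 12456 genes) called 8 of the 10 as rising and 1 as falling, while 22.0% of all genes tested rose and 22.8% fell. The median effect was 1.85 on the log2 scale over the 10 genes and 0.04 over all genes tested. As the 10 genes were chosen with earlier results of these data known, their counts and median are a description. By size in single arrays, 7 of the 10 were at least 2-fold higher in stimulated than in non-stimulated Tilcara cells and 1 at least 2-fold lower, where the shares of all genes were 11.9% and 14.3%. In wild type, 7 were at least 2-fold higher and none at least 2-fold lower, where the shares were 13.4% and 15.9%. This fit has 1 residual degree of freedom, which is the difference between the responses of the genotypes. limma adds a variance estimated over all genes, which brings the degrees of freedom to 4.46. Its p-values thus rest on that shared variance and on the likeness of those responses, and the spread between mice is not in them. As the arrays hold bulk RNA scaled to like distributions, more RNA per cell and more cells that hold it cannot be told apart.

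**Figure D1:**
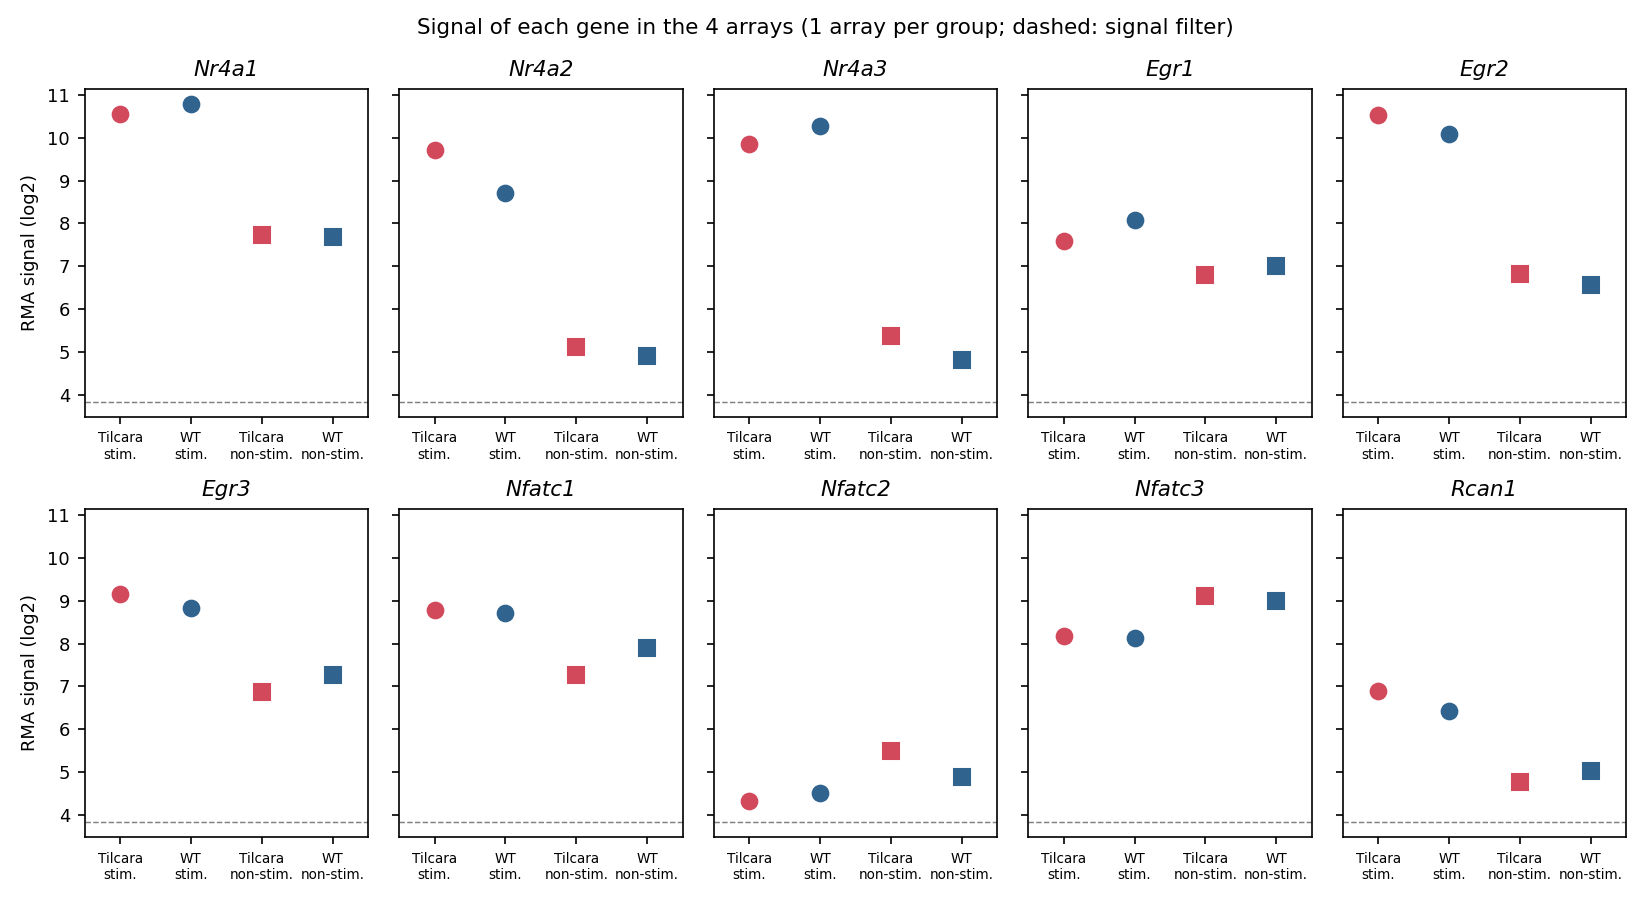
RMA signal (log2, vertical axis) of each of the 10 genes in the 4 arrays, 1 point per array, with stimulated arrays as circles, non-stimulated arrays as squares, Tilcara in red and wild type in blue; the dashed line is the signal filter at 3.83. Both stimulated arrays lie above both non-stimulated arrays for the NR4A and EGR genes, Nfatc1 and Rcan1, and below them for Nfatc2 and Nfatc3.

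The 3 NR4A genes, which encode orphan nuclear receptors that act without a known natural ligand, had the largest responses together with Egr2. Nr4a3 (probe set 17413945) read 9.85 in stimulated Tilcara cells and 10.27 in stimulated wild-type cells, against 5.37 in non-stimulated Tilcara cells and 4.82 in non-stimulated wild-type cells. Its stimulated signals were thus 22.3-fold higher in Tilcara and 43.5-fold higher in wild type, and in wild type its increase was the 8th highest of the 12456 genes. Over both genotypes Nr4a3 rose by 4.96 on the log2 scale (limma, SE 0.27, adjusted p = 0.00121).

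Nr4a2 (probe set 17385374) read 9.71 in stimulated Tilcara cells and 8.70 in stimulated wild-type cells, against 5.11 in non-stimulated Tilcara cells and 4.90 in non-stimulated wild-type cells. Here the stimulated Tilcara array was the highest of the 4, unlike for Nr4a3. The increase was 24.2-fold in Tilcara, the 13th highest of all genes there, and 14.0-fold in wild type, the 36th highest. Over both genotypes Nr4a2 rose by 4.20 (limma, SE 0.24, adjusted p = 0.00126).

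Nr4a1 (probe set 17315178), also known as Nur77, read 10.56 in stimulated Tilcara cells and 10.80 in stimulated wild-type cells, against 7.73 in non-stimulated Tilcara cells and 7.68 in non-stimulated wild-type cells. Both stimulated arrays lay well above both non-stimulated ones, and the genotypes lay close together in each state. The increase was 7.09-fold in Tilcara and 8.67-fold in wild type, and Nr4a1 rose by 2.97 over both (limma, SE 0.16, adjusted p = 0.00121).

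The EGR genes encode zinc finger factors that bind a GC-rich site. They all rose, but by unequal amounts. Egr2 (probe set 17233993), a factor that limits lymphocyte activation and autoimmunity, read 10.54 in stimulated Tilcara cells and 10.09 in stimulated wild-type cells, against 6.81 in non-stimulated Tilcara cells and 6.56 in non-stimulated wild-type cells. It was the EGR gene with the largest response, 13.3-fold in Tilcara and 11.6-fold in wild type, and the 2 responses differed by only 0.21 on the log2 scale. Egr2 rose by 3.63 over both genotypes (limma, SE 0.15, adjusted p = 0.00109).

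Egr3 (probe set 17301718), which acts together with Egr2 in lymphocytes, read 9.16 in stimulated Tilcara cells and 8.83 in stimulated wild-type cells, against 6.87 in non-stimulated Tilcara cells and 7.27 in non-stimulated wild-type cells. The Tilcara array was the higher one with stimulation and the lower one without. The increase was 4.88-fold in Tilcara and 2.96-fold in wild type, with a rise of 1.93 over both (limma, SE 0.22, adjusted p = 0.00429).

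Egr1 (probe set 17349514), the classical early readout of ERK signalling, had the smallest increase of the EGR genes. It read 7.60 in stimulated Tilcara cells and 8.08 in stimulated wild-type cells, against 6.81 in non-stimulated Tilcara cells and 7.01 in non-stimulated wild-type cells. The wild-type array was the higher one in both states. Egr1 rose by 0.93 over both genotypes (limma, SE 0.16, adjusted p = 0.0115), which is 1.73-fold in Tilcara and 2.10-fold in wild type. The wild-type difference of 1.07 on the log2 scale was 0.89 after cyclic loess scaling, under the 2-fold threshold.

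**Figure D2:**
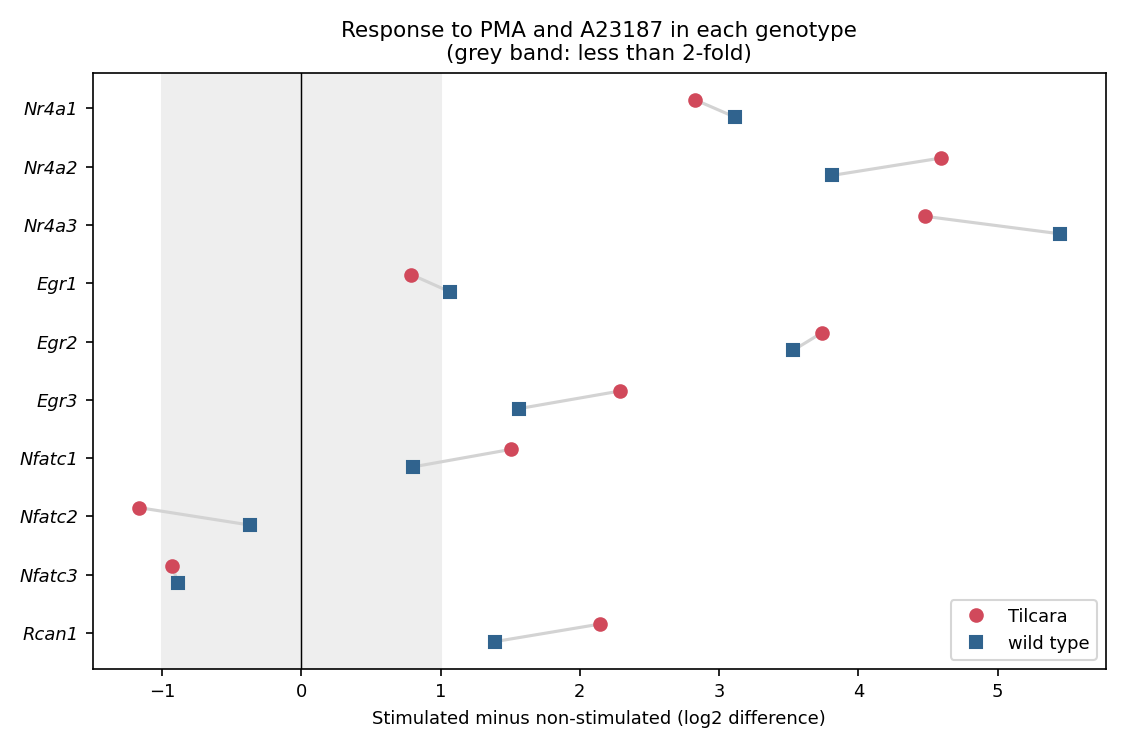
Response of each gene, as the log2 difference of stimulated minus non-stimulated signal (horizontal axis), in Tilcara (red circles) and wild type (blue squares), 1 value per genotype; the grey band marks differences of less than 2-fold. Nr4a3 has the largest wild-type response, 5.44, and Nr4a2 the largest Tilcara response, 4.60; Nfatc2 and Nfatc3 lie left of 0 in both genotypes.

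The NFAT factor genes did not move as a group: Nfatc1 rose, Nfatc3 fell and Nfatc2 was not called. Nfatc1 (probe set 17355670), whose own transcription NFAT proteins can switch on in activated lymphocytes, read 8.78 in stimulated Tilcara cells and 8.71 in stimulated wild-type cells, against 7.28 in non-stimulated Tilcara cells and 7.90 in non-stimulated wild-type cells. The stimulated arrays lay close together and the non-stimulated ones apart. The increase was 2.84-fold in Tilcara and 1.75-fold in wild type, and Nfatc1 rose by 1.16 over both (limma, SE 0.22, adjusted p = 0.0155).

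Nfatc3 (probe set 17505034), an NFAT factor of resting lymphocytes, went the other way. It read 8.19 in stimulated Tilcara cells and 8.12 in stimulated wild-type cells, against 9.12 in non-stimulated Tilcara cells and 9.004 in non-stimulated wild-type cells. The genotypes gave nearly equal decreases, 1.90-fold in Tilcara and 1.84-fold in wild type. The change over both was -0.91 (limma, SE 0.15, adjusted p = 0.00962).

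Nfatc2 (probe set 17394806), another NFAT factor of resting lymphocytes, read 4.33 in stimulated Tilcara cells and 4.51 in stimulated wild-type cells, against 5.50 in non-stimulated Tilcara cells and 4.88 in non-stimulated wild-type cells. These signals lie within 2 log2 units of the filter. Both stimulated arrays were below both non-stimulated ones, with a decrease of 2.24-fold in Tilcara and 1.29-fold in wild type. Over both genotypes the change of -0.77 (SE 0.24) did not pass limma's test (adjusted p = 0.0596), but it passed with a mean-variance trend in the fit (adjusted p = 0.0442).

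Rcan1 (probe set 17332228), a calcineurin inhibitor that NFAT induces as negative feedback, read 6.90 in stimulated Tilcara cells and 6.42 in stimulated wild-type cells, against 4.76 in non-stimulated Tilcara cells and 5.03 in non-stimulated wild-type cells. As for Egr3, the Tilcara array was the higher one with stimulation and the lower one without. The increase was 4.41-fold in Tilcara and 2.62-fold in wild type, and Rcan1 rose by 1.76 over both (limma, SE 0.23, adjusted p = 0.0056).

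The 5 further genes of these families moved little or could not be read. Nfat5, an NFAT relative that responds to osmotic stress without calcineurin, rose by 0.64 (limma, SE 0.15, adjusted p = 0.0268), but after cyclic loess scaling its effect was 0.43 and was not called (limma, adjusted p = 0.0738). Egr4 read between 3.13 and 3.93 in the 4 arrays and was not called (limma, effect 0.52, adjusted p = 0.0527). Nfatc4 and Rcan2 stayed below the signal filter in all 4 arrays, and Rcan3 shares its probe set with another symbol.

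The genotypes were then compared within each state. With stimulation, Nr4a2 was the only one of the 10 genes past 2-fold, 2.01-fold higher in Tilcara, where 0.955% of all genes reached 2-fold higher and 0.747% reached 2-fold lower. That difference, 1.01 on the log2 scale, lies at the threshold and was 0.97 after cyclic loess scaling. The other differences with stimulation ran both ways. Rcan1 (0.48), Egr2 (0.46) and Egr3 (0.32) read higher in Tilcara, while Egr1 (-0.49), Nr4a3 (-0.42) and Nr4a1 (-0.24) read lower. The NFAT genes differed by 0.08 for Nfatc1, 0.07 for Nfatc3 and -0.18 for Nfatc2. The central 95% of all genes ran from -0.68 to 0.74, so among the 10 genes only Nr4a2 lay outside it.

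Without stimulation none of the 10 genes differed by 2-fold, where 0.425% of all genes reached 2-fold higher in Tilcara and 0.658% reached 2-fold lower. The widest differences were those of Nfatc1, 1.54-fold lower in Tilcara, Nfatc2, 1.53-fold higher, and Nr4a3, 1.46-fold higher. The central 95% of all genes ran from -0.65 to 0.63 on the log2 scale, and these 3 genes, at -0.62, 0.61 and 0.55, lay inside it. Nr4a1, the readout of tonic and antigen receptor signalling, differed by 0.05. Over both states, limma called 0% of the 12456 genes for genotype, with 667 genes, 5.35% of all, at an unadjusted p below 0.05. None of the 10 genes was among those 667, and their adjusted p-values in limma ran from 0.866 to 0.987. A genotype difference present in 1 state only enters the residual of this fit, so the test could hardly call it. Il2, with a Tilcara minus wild-type difference of -3.31 with stimulation and 0.22 without, was not called either. The lack of genotype calls therefore does not show that the genotypes were alike.

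**Figure D3:**
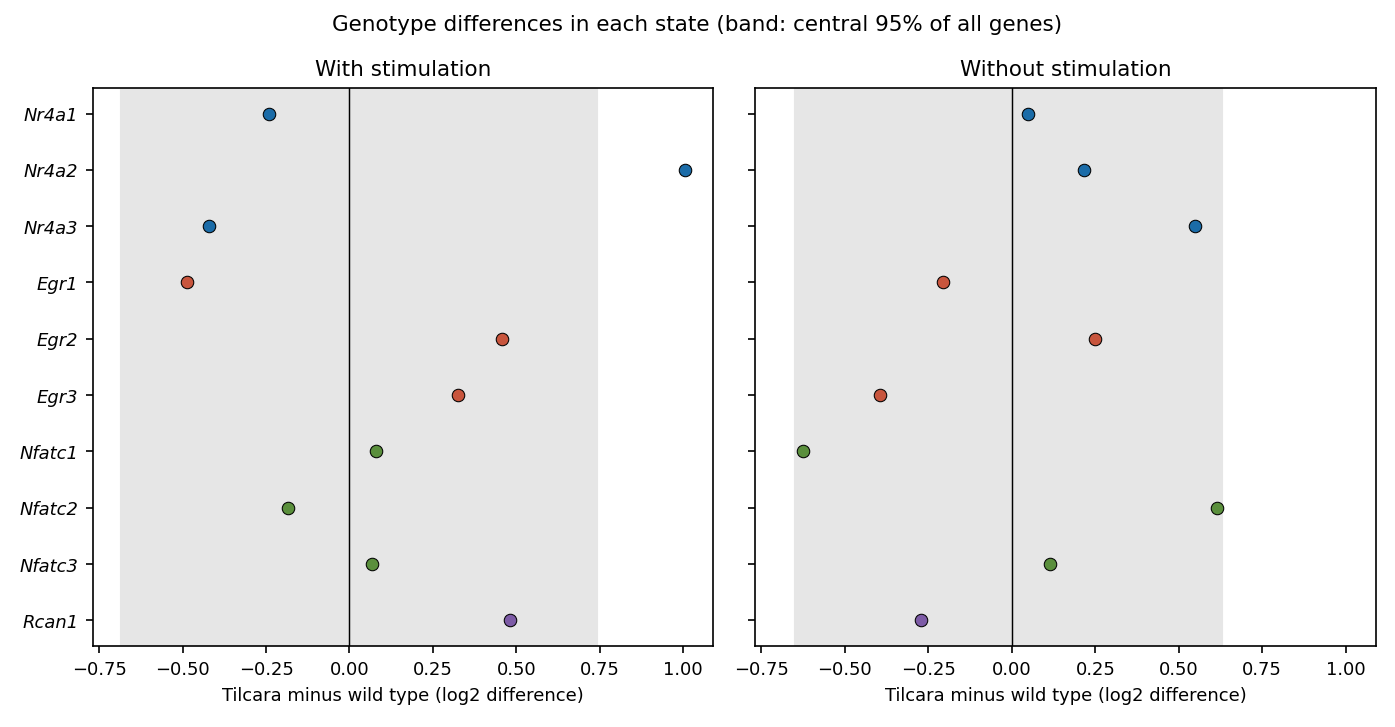
Tilcara minus wild-type signal (log2 difference, horizontal axis) of each gene with stimulation (left) and without it (right), 1 difference of single arrays per point, coloured by family; the grey band holds the central 95% of all 12456 genes. Nr4a2 with stimulation, at 1.01, is the only point outside its band.

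Set against each other, the responses of the 2 genotypes differed by less than 2-fold for all 10 genes, whereas 3.97% of all genes differed by 2-fold or more, as did 6.90% of the 3362 genes whose mean response was 1 or more in size. Nr4a3 came closest, with a difference of -0.97 on the log2 scale between the Tilcara and the wild-type response. For this difference the central 95% of all genes ran from -0.89 to 0.98, so among the 10 genes only Nr4a3 lay outside it. The Nr4a3 difference was -1.01 when each array was centred on its median. The response of Nr4a2 was 0.79 higher in Tilcara, that of Rcan1 0.75 higher, that of Egr3 0.72 higher and that of Nfatc1 0.70 higher. Nfatc2 had a more negative response in Tilcara, by -0.80. For the 4 remaining genes the responses differed by at most 0.29. In 7 of the 10 genes the response was larger in Tilcara in the direction of the mean response, as it was in 43.0% of all genes. With 1 array per group none of these differences could be tested.

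**Figure D4:**
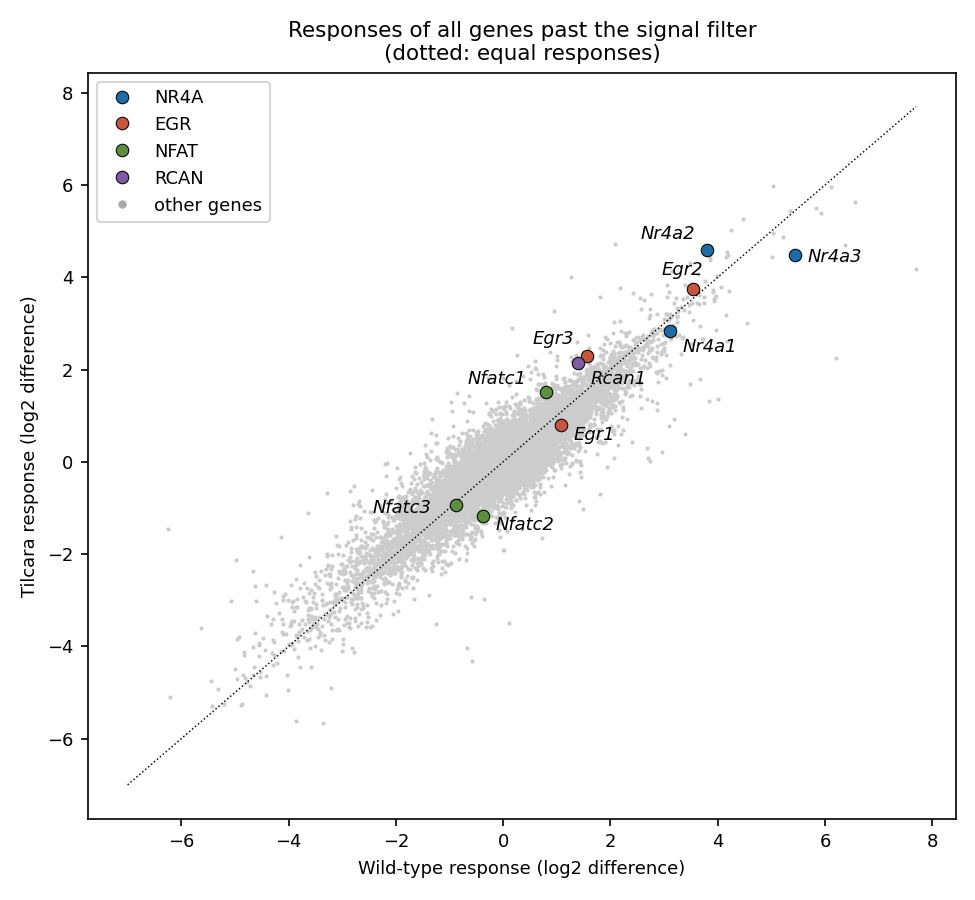
Tilcara response (vertical axis) against wild-type response (horizontal axis), both as log2 differences of stimulated minus non-stimulated signal, for all 12456 genes past the signal filter (grey) and the 10 genes by family (coloured); the dotted line marks equal responses. Nr4a3 lies below the line and Nr4a2 above it, and Egr2, Nr4a1, Egr1 and Nfatc3 lie near it.

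Other genes of the pathway were read from 4 lists. Of the calcineurin and NFAT handling genes, 12 of 20 were tested, 1 rose, 3 fell and 8 were not called, where 22.0% of all genes rose and 22.8% fell, and the median effect was -0.09. The calcineurin catalytic subunit genes Ppp3cc and Ppp3ca fell, with effects of -1.58 and -1.55, whereas the third, Ppp3cb, was not called at -0.25. Gsk3b, a kinase that drives NFAT out of the nucleus, fell with an effect of -1.62. Fkbp1a, for the protein through which the drug FK506 blocks calcineurin, rose by 1.37.

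Of the upstream regulators of NR4A and EGR genes, 20 of 25 were tested. Where 22.8% of all genes fell and 22.0% rose, 11 of these regulators fell and 1 rose, with a median effect of -0.66. They include kinases of the ERK pathway, serum response factor and its partners, CREB and MEF2 factors and the histone deacetylases that hold MEF2 in check. The lowest was Mef2c, a calcium-responsive factor needed for B cell proliferation after antigen receptor signals. It read 9.14 in stimulated Tilcara cells and 6.66 in stimulated wild-type cells, against 10.25 in non-stimulated Tilcara cells and 10.31 in non-stimulated wild-type cells. Mef2c fell over both genotypes (limma, effect -2.38, SE 0.62, adjusted p = 0.0363), but without a filter on low signals the call was lost (limma, adjusted p = 0.0569). With stimulation it read 5.57-fold higher in Tilcara, and the responses differed by 2.54. Mrtfa, a coactivator of serum response factor, fell with an effect of -2.26, and the deacetylase genes Hdac9 and Hdac5 with effects of -1.65 and -1.39. The 1 gene that rose was also such a deacetylase gene, Hdac4 (limma, effect 0.98, SE 0.23, adjusted p = 0.0269).

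The list of EGR corepressors and EGR-linked targets had 12 of 13 genes tested. Of these, 6 rose and 3 fell, where 22.0% of all genes rose and 22.8% fell, and the median effect was 1.70. Nab2, a corepressor that EGR factors induce and that binds them in return, rose by 1.59, and Nab1, its relative, was not called at -0.39. Gadd45b, a stress gene, rose by 2.58, and Cd44, an adhesion receptor that EGR1 can induce, rose by 2.13. Id3, an inhibitor of E proteins, fell with an effect of -2.61, and Ptprj, a receptor tyrosine phosphatase, with an effect of -2.15. With stimulation Id3 read 2.13-fold higher in Tilcara and Gadd45b 2.19-fold lower.

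Of the NFAT-induced lymphocyte genes, 15 of 20 were tested. The untested Il3, Il4, Csf2, Cd40lg and Fasl stayed below the signal filter in all 4 arrays. Of the 15, 12 rose in limma's test, none fell and 3 were not called, where 22.0% of all genes rose and 22.8% fell. The median effect of the 15 was 2.08. Of the 12, 5 read below the signal filter in both non-stimulated arrays and passed it only through a stimulated array, so they had to read higher there: Il2, Tnfrsf9, Lag3, Pdcd1 and Ctla4. The count and the median include them and are given as a description. Ccl4 and Ccl3, chemokines of activated lymphocytes, rose by 6.09 and 5.66, Il2 by 5.94 and Xcl1, a chemokine, by 4.35. The effect of Il2 is set against signals below the filter and is approximate. With stimulation, the Tilcara minus wild-type difference of Il2 was -3.31 on the log2 scale, whereas those of Ccl4, Ccl3 and Xcl1 were -0.34, -0.15 and -0.06. Of the 15, 3 were at least 2-fold lower in stimulated Tilcara than in stimulated wild-type cells, namely Il2, Tnf and Ctla4. None was at least 2-fold higher. The shares of all genes were 0.747% lower and 0.955% higher. Ctla4 reached the filter in stimulated wild type alone, at 4.54, and read 3.32 in stimulated Tilcara. It thus had to read lower in Tilcara to be in the list, and the size of that difference is approximate. At an unadjusted p below 0.05, limma gave 13 of the 15 genes as higher and 1, Tox, as lower. The 13 include the 5 genes that passed the filter only through a stimulated array. The share of all genes at this unadjusted threshold is not given, so the count is a description too.

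**Figure D5:**
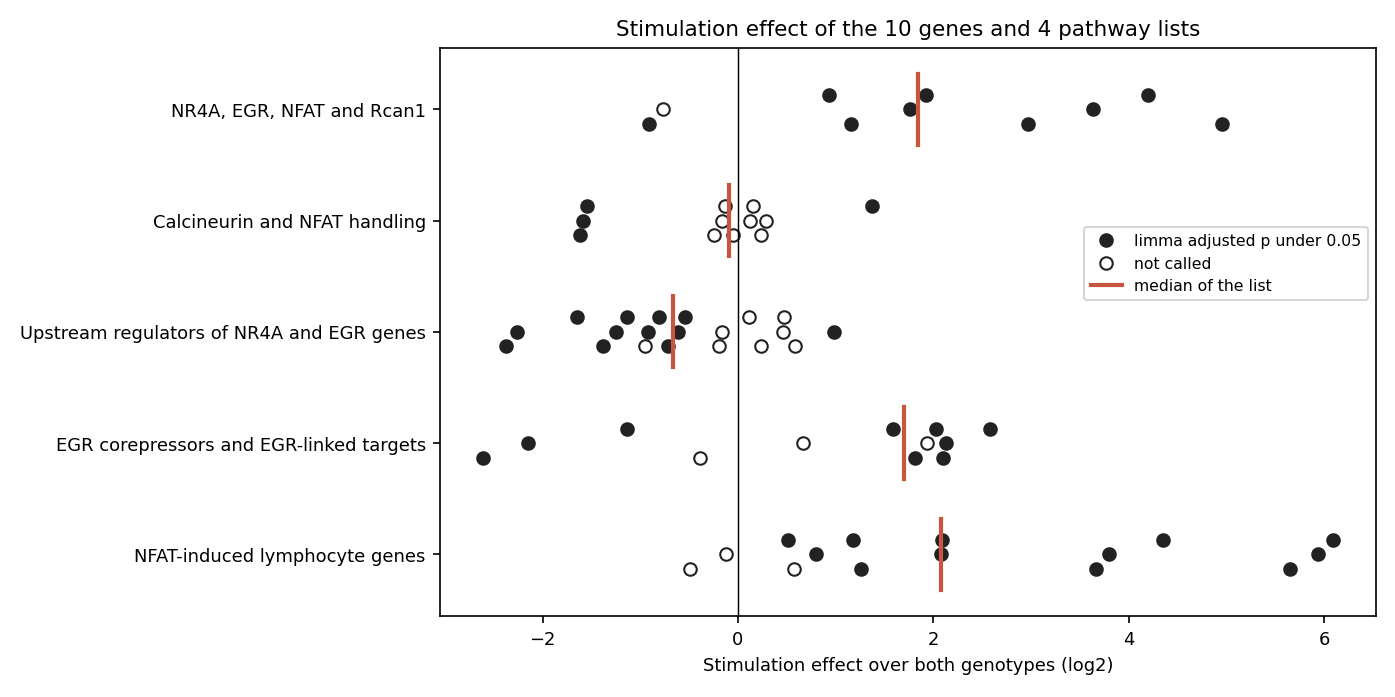
Stimulation effect over both genotypes (limma, log2, horizontal axis) of each tested gene among the 10 genes and in the 4 lists, 1 point per gene; filled points passed an adjusted p of 0.05, open points did not, and red bars mark medians. The median is 1.85 for the 10 genes, -0.09 for calcineurin and NFAT handling, -0.66 for upstream regulators, 1.70 for EGR-linked genes and 2.08 for NFAT-induced genes.

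The genes nearest in pattern to each member were found by the root mean square difference of log2 signals over the 4 arrays, after each gene was centred on its own mean. This was done for the 6 members that spanned at least 2 log2 units, among 11773 other genes. Nr4a1 was nearest to Noc4l and Nolc1, both of ribosome biogenesis, with differences of 0.016 each, and then to Zbtb10 (0.050). Nr4a2 was nearest to the inhibitory receptor gene Lilrb4a (0.116), to Rgs16 (0.162) and to Fabp5 (0.317). For Nr4a3 the nearest were Iigp1 (0.191), Ccl3 (0.365) and Cxcl10 (0.369), of which Iigp1 and Cxcl10 read below the signal filter in both non-stimulated arrays, so their distances are approximate. Egr2 was nearest to the AP-1 gene Fosl2 (0.062), Rgs1 (0.098) and Ifng (0.142). Egr3 was nearest to Plcxd2 (0.051), Pvr (0.081) and Slc12a2 (0.100), and Rcan1 to Mcm6 (0.044), Fas (0.061) and Plcxd2 (0.061), so Plcxd2 was shared by both. With 4 arrays such likeness is a description of shape alone.

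The labelled cell type and other cells were checked by markers. Among B cell markers, 9 of 10 had a probe set, and all 9 were at or above the filter in every array. Their summed linear signal was 2630 in stimulated Tilcara, 2250 in stimulated wild type and 13600 in each of both non-stimulated arrays, and all 9 fell with stimulation in limma's test. Of 9 T cell markers with a probe set, the number at or above the filter was 1 in stimulated Tilcara, 2 in stimulated wild type, 2 in non-stimulated Tilcara and 6 in non-stimulated wild type, with summed signals of 86.7, 112, 104 and 176 in the same order. Of 11 neutrophil and macrophage markers, 2, 3, 3 and 7 were at or above it in that order, with summed signals of 265, 243, 185 and 957, and S100a8 read 3.81 in non-stimulated Tilcara and 9.004 in non-stimulated wild type. Among the CD3 genes, which define T cells, Cd3e read 3.99 in non-stimulated wild type and at most 3.60 elsewhere. Cd3g read 4.21 in non-stimulated wild type and at most 3.06 elsewhere. Cd3d was above the filter in both non-stimulated arrays, at 5.09 in wild type and 4.59 in Tilcara. With stimulation it read 3.28 in wild type and 3.61 in Tilcara. Both lists thus had their highest sum and most markers above the filter in the non-stimulated wild-type array, which is one side of each wild-type response and of each genotype difference without stimulation above, and their part in those results was not tested. Single markers ran otherwise. Thy1 read 3.84 in stimulated Tilcara and 5.01 in stimulated wild type, and 3.54 in non-stimulated Tilcara and 5.40 in non-stimulated wild type, so it was high in both wild-type arrays. Cd28 and Mpo were highest in stimulated wild type, at 4.29 and 4.27, and Cd68 was highest in stimulated Tilcara, at 7.44. Prkcb, the gene of PKCbeta, read 7.27 in stimulated Tilcara and 7.28 in stimulated wild type, and 9.39 in non-stimulated Tilcara and 9.42 in non-stimulated wild type, and a transcript level does not check the label of a mutant.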

How the data were processed

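The deposited signals are log2 values; the submitters' processing notes name RMA, without a version, as the authors' method. RMA removes background, brings the arrays to the same quantiles and summarises the probes of a probe set, so array medians lay between 3.73 and 3.79 and a change in total RNA per cell cannot be seen. The table held 41345 probe sets, of which 23521 had 1 symbol in the platform annotation, 1814 several and 16010 none; only the first were named. The gene IDs of 23328 were found in the RefSeq table, and no symbol needed updating. The brightest probe set stood for a gene, and genes whose highest value was below 3.83, the median over named probe sets and arrays, were left out.

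Groups came from the sample titles. Differences between single arrays were called at 1 on the log2 scale, with no test. limma 3.58.1 in R 4.3.3 fitted both state and genotype to all 4 arrays, adjusted by Benjamini-Hochberg at 0.05, and was tested on simulated data. The words rose and fell mark limma's calls. Alternatives were median centring, cyclic loess, the mean over probe sets, no filter, a stricter filter at 4.83 and a mean-variance trend. The 10 genes and the lists were chosen with earlier results of these data known; the lists hold textbook pathway genes. Named were the 10 genes, their relatives, up to 4 genes per list with the largest mean response, and the 3 nearest in pattern. Ppp3cb, Hdac4, Nab1, Nab2, Tnf, Ctla4, Tox, Tnfrsf9, Lag3, Pdcd1, Il3, Il4, Csf2, Cd40lg, Fasl and single markers were named after their values were seen. The precision is limited by the number of arrays.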

Additional observations from a re-analysis of the deposited data

How the results depend on the processing

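The 10 genes had 1 probe set each and passed every filter, so averaging probe sets or changing the filter moved only the fit. Their differences between arrays could not change under those settings, yet the count below includes them. The spread over genes used as a limit was wide for responses, 0.74 in Tilcara and 0.83 in wild type on the log2 scale. Over the 10 genes, their differences and their effects, 369 of 370 values under the alternatives kept their direction and call or moved by less than the spread over genes; the exception was Nfatc2, called with a mean-variance trend (limma, effect -0.77, adjusted p = 0.0442). That setting made 2 of the 10 genes fall instead of 1. With cyclic loess, 2 genes were at least 2-fold lower in stimulated Tilcara and 1 in stimulated wild type, the added gene being Nfatc3 in each; 6 instead of 7 were at least 2-fold higher in stimulated wild type, as the difference of Egr1 was 0.89 instead of 1.07, and the count at least 2-fold higher in stimulated Tilcara than in stimulated wild type was 0. Median centring made 1 response, that of Nr4a3, at least 2-fold lower in Tilcara. The cause of these shifts was not tested. Genotype calls stayed at 0 of all genes in each of the 6 alternatives, where the fit again could hardly call a difference present in 1 state only. No paired analysis was possible because the labels carry no replicate numbers and each group is 1 array; for the same reason no array could be left out. Signal over background limits Nfatc2 most, since its signals lay nearest to the filter. The non-stimulated signals of Nr4a3, Nr4a2 and Rcan1, from 4.76 to 5.37, also lay within 2 log2 units of it. Their fold increases are thus approximate.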

Other observations

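Of the pathway genes outside the rule for named genes, 3 more are given here, also picked after their values were seen. Socs3, a feedback inhibitor of cytokine signalling, read 6.27 in stimulated Tilcara and 7.997 in stimulated wild type, a Tilcara minus wild-type difference of -1.73, against 5.49 in non-stimulated Tilcara and 4.91 in non-stimulated wild type; its stimulation effect of 1.93 just missed limma's threshold (adjusted p = 0.0503). Srf, for serum response factor, differed by -0.24 with stimulation in Tilcara and by 0.47 in wild type. Akap5, for a scaffold that binds calcineurin, differed by 0.21 in Tilcara and by -0.32 in wild type. With stimulation, the Tilcara minus wild-type differences of Srf and Akap5 were -0.40 and 0.39, inside the central 95% of all genes. These differences between genotypes were not tested, and with 1 array per group they have no spread to be set against.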
